A study of Mus musculus with 8 samples.

Results

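The 50 genes described here encode subunits and partners of 4 families of ATP-dependent chromatin remodellers, and were chosen by name among the 32285 genes counted. They comprise 27 subunits of the BAF (SWI/SNF) complexes, 8 ISWI ATPases and partner proteins, 5 ATPases of the INO80 family and related SNF2 enzymes, and 10 subunits of the NuRD complex. All 50 were counted in nuclei from the cerebral cortex of C57BL/6J mice at postnatal day 25, with the medial cortex removed and 1 animal per library. Of the 8 libraries, 4 were labelled wild type (WT) and 4 Chd8het (Chd8+/-), each with 2 males and 2 females, from 4 pairs matched for litter and sex. In every group the library numbered 1 carried a single index and the library numbered 2 dual indexes. The labels do not describe the Chd8 allele.

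The libraries held 69503598 to 98132783 UMIs (unique molecular identifiers) over 9140 to 14280 deposited barcodes, and any pair of libraries had 27 to 63 barcodes in common. Filtering for at least 500 genes and at most 5% mitochondrial UMIs, and removal of 4000 predicted doublets (4.87%), left 78168 nuclei. Marker lists that hold no subunit gene named 63680 of them (81.5%): 46554 excitatory neurons, 3969 inhibitory neurons, 4211 astrocytes, 2568 microglia, 3577 oligodendrocytes, 2280 of their precursors (OPC) and 521 nuclei of vessels (vascular). Of the nuclei kept, 4481 (5.73%) lay near the limit on the lead, on either side of it, and 1147 near the limit on the score. The 10 excitatory markers, all detected, summed to 4417 to 4811 CPM in excitatory neurons and, in the 4 glial classes, to between 491 CPM (the lowest oligodendrocyte library) and 1292 CPM (the highest OPC library). The median UMI count ran from 1445 in microglia to 8537.5 in excitatory neurons. Levels are in CPM, the UMIs of a gene relative to all UMIs from the nuclei of a class in a library, after scaling by the trimmed mean of M values (TMM). The marker sums above and all levels by cluster are CPM of total UMIs without this scaling. Cluster and class levels are therefore on different scales.

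Remodellers use ATP to slide, evict or exchange nucleosomes, and most are assembled from subunits that come in closely related versions, called paralogues. BAF complexes are known to exchange subunits as neural progenitors leave the cell cycle: ACTL6A, PHF10 and SS18 are the forms of dividing cells, and ACTL6B, DPF1 or DPF3, and SS18L1 (CREST) are the forms of neurons. The exchange of ACTL6A is known to involve microRNAs that bind the 3' UTR of its transcript. ISWI enzymes (SMARCA1 and SMARCA5) space nucleosomes with large partner proteins, INO80-family enzymes exchange histone variants, and NuRD joins nucleosome remodelling to histone deacetylation.

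Sequences of 2 kinds are shown for the exchange between the actin-related paralogues Actl6a and Actl6b, the pair with the widest difference between neurons and glia. The first is taken from the 250 bases upstream of each start site in the RefSeq promoter table, in lower case on the plus strand, build GRCm38.p6. Only the part free of annotated GENCODE exons is printed, so both stretches end short of the RefSeq start, and that of Actl6a lies inside the gene span that GENCODE gives. Actl6a (ENSMUSG00000027671) lies on the plus strand at chr3:32706298-32726973 and its stretch at chr3:32708296-32708506, and Actl6b (ENSMUSG00000029712) lies on the plus strand at chr5:137553517-137569582 and its stretch at chr5:137553296-137553516.
Actl6a: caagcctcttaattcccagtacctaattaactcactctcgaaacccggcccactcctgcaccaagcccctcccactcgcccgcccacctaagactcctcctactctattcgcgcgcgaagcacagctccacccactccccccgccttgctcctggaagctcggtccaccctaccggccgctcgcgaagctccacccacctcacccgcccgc
Actl6b: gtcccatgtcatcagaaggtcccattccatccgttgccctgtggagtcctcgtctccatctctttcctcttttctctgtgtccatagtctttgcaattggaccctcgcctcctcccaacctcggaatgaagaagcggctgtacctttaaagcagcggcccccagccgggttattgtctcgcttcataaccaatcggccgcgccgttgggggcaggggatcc
Within the 250 bases upstream of the start, neither gene held the left arm of the element bound by the neuronal repressor REST (TTCAGCACC), its right arm (GGACAGC), an ETS site (CCGGAAGT) or a cAMP response element (TGACGTCA), searched on both strands. Among 27025 promoters in the table these letters occur in 0.285%, 5.291%, 2.931% and 1.624%. Of 41 member genes in the table, 5 held GGACAGC (Arid1b, Baz2a, Mbd3, Smarca5 and Smarcc2), Baz2b held the cAMP response element and Mta2 held the ETS site. A match describes letters only.

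The second is miR-9-3p, one of the microRNAs known to target Actl6a. Its mature form is encoded by Mir9-1 at chr3:88215652-88215673, Mir9-2 at chr13:83738858-83738879 and Mir9-3 at chr7:79505318-79505339, and is printed with its seed, bases 2 to 8, in capitals. The site is printed from the Actl6a 3' UTR with the match to the seed (AGCTTTA) in capitals.
miR-9-3p: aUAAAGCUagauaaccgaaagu
Actl6a site: tcaacgtctgtAGCTTTAgtacactcagg
The match begins at base 243 of the 376 bases of the Actl6a 3' UTR, and the 394 bases of the Actl6b 3' UTR hold none. A match to this seed occurs in the 3' UTR of 2475 of 21924 genes (11.29%) and of 12 member genes, so the letters alone do not set Actl6a apart. MicroRNAs were not measured in these libraries.

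The first comparison asked whether neurons and glia of the same library differ in the paralogues they use. For 20 pairs of paralogues, the log2 ratio of CPM + 1 was averaged over the excitatory and inhibitory classes and, separately, over astrocytes, oligodendrocytes, OPC and microglia. The difference between these means was tested over the 8 libraries with an exact sign-flip permutation test (two-sided), in which p = 0.00781 is the smallest value possible, and adjusted over the 20 pairs. In 19 pairs the ratio differed (adjusted p 0.0411 or less), and in 12 when nuclei had been thinned to equal UMI counts. Other pairs of genes were not tested, so this count has no background share and is a description. Of single genes, 79.2% differed between neurons and glia in the edgeR fit described below. Only the difference between classes is read from a ratio, since the counts of 2 genes also depend on their sequence and length.

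The actin-related pair showed the widest difference. Actl6b, the neuronal form, was between 51.3 and 59.6 CPM in the excitatory neurons of the 8 libraries (median 55.2) and between 36.03 and 47.2 CPM in inhibitory neurons (median 40.8). In astrocytes it was between 8.03 and 15.1 CPM (median 9.05), in oligodendrocytes between 6.38 and 13.2 (median 10.9), in OPC between 8.07 and 20.5 (median 12.7) and in microglia between 6.98 and 19.8 (median 16.0). Every neuronal value lay above every glial value. The Actl6b/Actl6a ratio was 2.38 ± 0.12 log2 units higher in neurons than in glia (mean ± SD, n = 8; 5.21-fold; exact sign-flip permutation test, adjusted p = 0.0120), with single libraries between 2.19 and 2.56.

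Of the 2 genes Actl6b differed more, and was 2.01 log2 units higher in neurons (SE 0.07, adjusted p = 1.15e-36, edgeR quasi-likelihood test with Benjamini-Hochberg adjustment). Actl6a was lower in neurons by less, -0.48 (SE 0.07, adjusted p = 3.16e-08, edgeR). The remaining glial Actl6b, on average 21.5% of the excitatory level, can be set beside marker genes of excitatory neurons that glia should lack: the 10 listed markers were found in glia at 8.88% to 31.7% of their excitatory level (median 16.1%). The 9 inhibitory markers were found in glia at 1.25% to 7.18% of their inhibitory level (median 2.17%), below the value of Actl6b. Both marker lists also set the gate, and Actl6b did not. The selection of nuclei bears directly on the marker shares. It can also bear on carried-over Actl6b, since glial nuclei rich in neuronal marker RNA can fail the gate. The part of carried-over RNA in the glial Actl6b counts was not tested.

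Actl6a also differed between the replicate numbers, which coincide with the index type of the library. Over all nuclei it was 22.6, 23.7, 22.0 and 20.5 CPM of total UMIs in the single-indexed libraries and 11.8, 12.3, 10.3 and 12.7 CPM in the dual-indexed ones. These 2 sets did not overlap (22.2 ± 1.35 against 11.8 ± 1.07, SD, n = 4 each), and the dual-indexed libraries were lower in all 6 neuronal and glial classes, by a mean of -0.80 log2 units. Over all nuclei, on total UMIs, the difference was -0.86. Of 11631 genes at 5 CPM or more, 186 (1.60%) differed as much there between index types. By the mean over the 6 classes, after TMM scaling, Dpf1 was the only other member past 0.5 log2 units (0.56). The median absolute difference of the members was 0.13. Mrpl47, which overlaps Actl6a on the opposite strand, was 9.32 ± 0.51 CPM in single-indexed and 7.74 ± 0.13 CPM in dual-indexed libraries (SD, n = 4). The part of indexing in the Actl6a counts was not tested. The difference between neurons and glia was taken within each library.

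**Figure D1:**
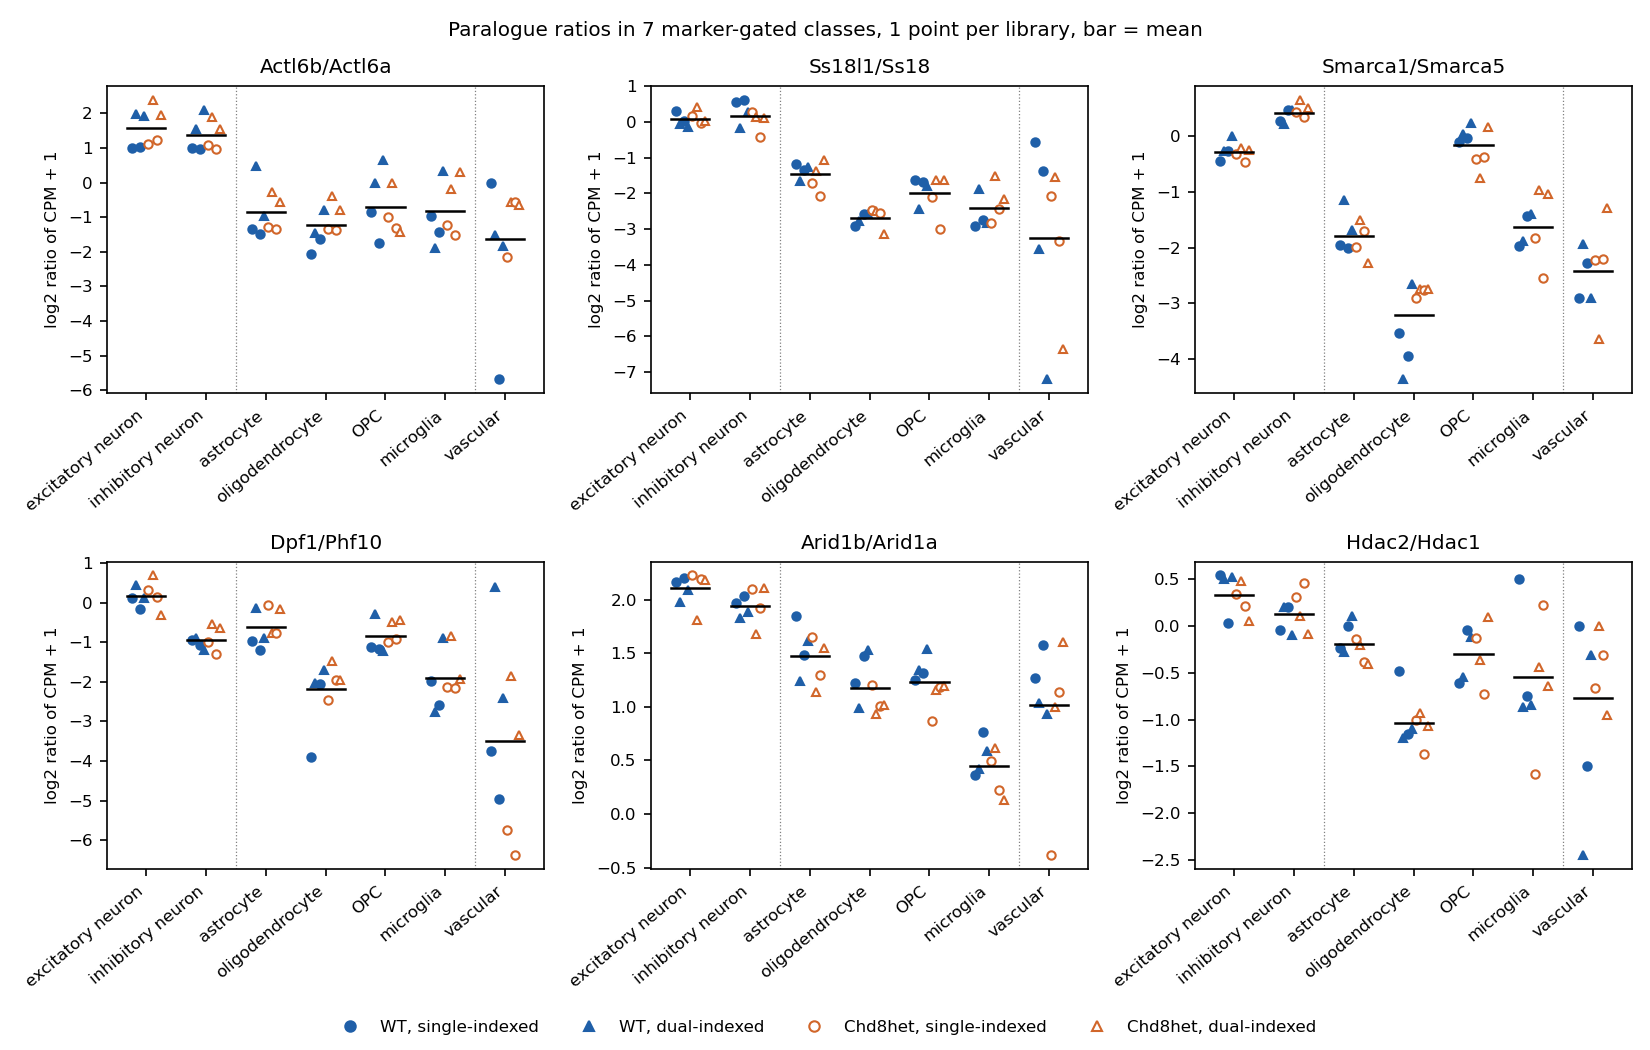
Log2 ratio of CPM + 1 (vertical axis) for 6 pairs of paralogues in 7 cell classes (horizontal axis), with 1 point per library, circles for single-indexed and triangles for dual-indexed libraries, filled blue for WT and open orange for Chd8het, and a bar at the mean. Actl6b/Actl6a, Ss18l1/Ss18 and Smarca1/Smarca5 were higher in both neuronal classes than in astrocytes, oligodendrocytes and microglia. The vascular class rests on 43 to 91 nuclei per library.

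The SS18 pair followed closely. Ss18l1 (CREST), a calcium-responsive coactivator, and Ss18 occupy the same position in BAF. The Ss18l1/Ss18 ratio was between -0.22 and 0.43 in neurons (median 0.14) and between -2.52 and -1.76 in glia (median -2.14), so the groups did not overlap. The difference of 2.26 ± 0.21 (SD, n = 8; 4.80-fold; exact sign-flip permutation test, adjusted p = 0.0120) was made mainly by Ss18, which was -1.53 in neurons minus glia (SE 0.05, adjusted p = 1.47e-36, edgeR). Ss18l1 was 0.80 higher in neurons (SE 0.08, adjusted p = 3.71e-14, edgeR). In this pair the wider of the differences was that of the form lower in neurons, and in the actin-related pair that of the form higher in neurons.

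The ISWI ATPases gave the third wide difference. Smarca1 (SNF2L; minus strand, chrX:47809368-47892974) was between 53.5 and 62.0 CPM in excitatory neurons (median 57.6) and between 65.8 and 78.4 CPM in inhibitory neurons (median 70.9). It was between 8.07 and 19.8 CPM in astrocytes (median 13.8), between 3.55 and 13.9 in oligodendrocytes (median 9.55) and between 7.56 and 18.3 in microglia (median 14.0). OPC stood between, at 32.04 to 49.1 CPM (median 42.6), overlapping neither neurons nor the other glia. As a share of its excitatory level, Smarca1 was at 14.7% to 23.4% in astrocytes, oligodendrocytes and microglia and at 70.5% in OPC. Beside it stand the 8.88% to 31.7% of the excitatory and the 1.25% to 7.18% of the inhibitory markers, which also set the gate. The part of carried-over RNA was not tested. The Smarca1/Smarca5 ratio was 1.77 ± 0.12 higher in neurons (SD, n = 8; 3.40-fold; exact sign-flip permutation test, adjusted p = 0.0120). OPC did not share the lower glial ratio: it was -0.15 ± 0.33 in OPC, -0.27 ± 0.15 in excitatory and 0.42 ± 0.14 in inhibitory neurons (SD, n = 8 each).

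The PHD-finger subunits split by class. These proteins read histone tails. PHF10 is known from PBAF and the DPF proteins from canonical BAF, and GBAF holds neither. The Dpf1/Phf10 ratio was between -0.63 and 0.08 in neurons (median -0.45) and between -1.99 and -0.89 in glia (median -1.36), without overlap. It was 1.00 ± 0.31 higher in neurons (SD, n = 8; 2.00-fold; exact sign-flip permutation test, adjusted p = 0.0120). Within neurons it was 0.17 ± 0.32 in excitatory and -0.95 ± 0.26 in inhibitory cells (SD, n = 8). The inhibitory mean lay below those of OPC (-0.83 ± 0.37) and astrocytes (-0.62 ± 0.44) and above those of microglia (-1.91 ± 0.70) and oligodendrocytes (-2.19 ± 0.75, SD, n = 8 each). Dpf1 itself was 13.7 to 36.9 CPM in excitatory neurons (median 20.1) and 9.26 to 17.1 CPM in inhibitory neurons (median 10.9), and its glial level was 48.6% of the excitatory one. The Dpf3/Phf10 ratio went the other way, -1.14 ± 0.24 (SD, n = 8; exact sign-flip permutation test, adjusted p = 0.0120). The glial classes were split: the ratio was 3.57 ± 0.34 in astrocytes and 1.57 ± 0.55 in OPC, but -1.69 ± 0.51 in oligodendrocytes and -2.999 ± 0.998 in microglia, below the -1.11 ± 0.28 of excitatory and the -0.94 ± 0.28 of inhibitory neurons (SD, n = 8 each).

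Other pairs with a higher ratio in neurons were Smarcd3/Smarcd2, alternative versions of a BAF core subunit, at 1.42 ± 0.53, and Arid1b/Arid1a, the alternative DNA-binding subunits, at 0.94 ± 0.18 (SD, n = 8 each). Dpf1/Dpf2 differed by 0.80 ± 0.34, a call lost when nuclei were thinned, with inhibitory neurons (-1.22 ± 0.26) below OPC (-0.92 ± 0.29), and Hdac2/Hdac1, the NuRD deacetylases, by 0.75 ± 0.24 (SD, n = 8 each). Each was higher in neurons in 8 of 8 libraries. Baz1a/Baz1b (-1.35 ± 0.50), Baz2b/Baz2a (-1.24 ± 0.14) and the ATPases Smarca2/Smarca4 (-0.70 ± 0.19) were lower in neurons in 8 of 8 libraries (SD, n = 8 each). For Baz1a/Baz1b and Smarca2/Smarca4 this did not hold in every class. For Baz1a/Baz1b, excitatory neurons (-3.08 ± 0.20) lay above oligodendrocytes (-3.45 ± 0.23) and OPC (-3.48 ± 0.97), while microglia (-0.54 ± 0.26) were highest and inhibitory neurons (-4.71 ± 0.57) lowest (SD, n = 8 each). For Smarca2/Smarca4, excitatory neurons (0.83 ± 0.19) were close to oligodendrocytes (0.90 ± 0.21), and L2/3 IT neurons (1.53 ± 0.18) lay above oligodendrocytes and OPC (1.07 ± 0.23; SD, n = 8 each). All 7 reached the smallest adjusted value of the exact sign-flip permutation test, 0.0120. The Gatad2b/Gatad2a ratio differed by 0.24 ± 0.24 (adjusted p = 0.0411), a call lost with a pseudocount of 5 CPM and when nuclei were thinned. For Bcl7a/Bcl7b the difference was 0.08 ± 0.31 (adjusted p = 0.50, exact sign-flip permutation test), and the sign of Bcl7a/Bcl7c, -0.37 ± 0.23, turned to 0.11 when all neurons and all glia were summed before the ratio was taken.

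The same contrast was then fitted over 14264 genes with edgeR, with the library as a block. A difference at adjusted p under 0.05 was found for 79.2% of genes, 41.3% higher and 38% lower in neurons, and for 42 of the 50 members (84.0%), 20 higher and 22 lower. The median difference was -0.07 over members and 0.01 over all genes. Differences of at least 2-fold were found for 5 members (10.0%), 2 higher and 3 lower, against 29.3% of all genes, 16.4% higher and 12.9% lower. The share called was close to that of all genes without a fold limit and lower with it, and neither difference in shares was tested. Without scaling, on total counts, the median of all genes moved to -0.29 and the members split 9 higher to 34 lower. In thinned nuclei, where 47 members were tested, 6 were higher and 23 lower. Of the 42, 34 kept their direction in each of the 19 alternatives that tested them, and 8 turned with total counts.

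**Figure D2:**
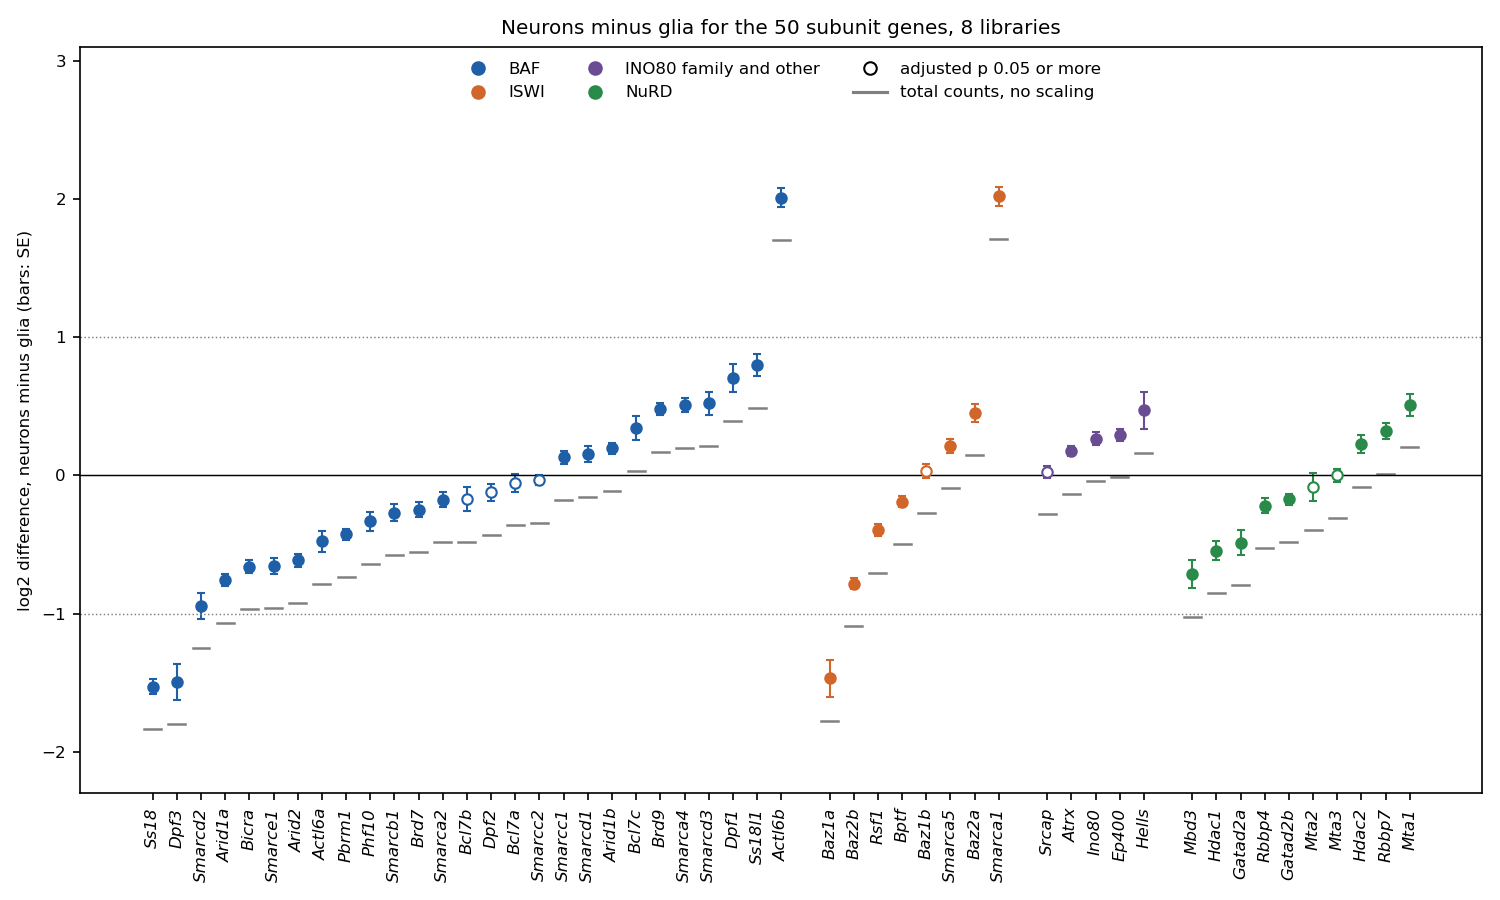
Log2 difference of neurons minus glia (vertical axis, bars are SE) for the 50 genes grouped by complex (horizontal axis), filled where adjusted p was under 0.05, with a grey line at the value on total counts. Smarca1 and Actl6b stand at the top of ISWI and BAF, and the grey lines lie below the points.

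Among the 27 BAF genes 10 were higher and 13 lower in neurons, where 41.3% of all genes were higher and 38% lower, and these counts by family are a description only. Beside Actl6b, Ss18l1 and Dpf1, the higher ones included the core subunit Smarcd3 (0.52, SE 0.08), the ATPase Smarca4 (0.51, SE 0.05) and the GBAF bromodomain subunit Brd9 (0.48, SE 0.04). Beside Ss18, Dpf3 and Actl6a, the lower ones included Smarcd2 (-0.94, SE 0.09), Arid1a (-0.76, SE 0.05), the GBAF subunit Bicra (-0.66, SE 0.04) and the core subunit Smarce1 (-0.65, SE 0.06). The 3 genes listed here under the PBAF form, Arid2 (-0.62), Pbrm1 (-0.43) and Brd7 (-0.25), were lower, a group of 3 where 38% of all genes were lower. Phf10, also known from PBAF, is listed with the PHD-finger subunits. Of these BAF genes, 24 of 27 held 1 direction in every alternative that tested them.

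In the ISWI family, 3 of 8 were higher and 4 lower, beside the same 41.3% and 38% of all genes, which also apply to the NuRD and INO80-family counts. Beside Smarca1 these were Baz2a (0.45, SE 0.07), a partner in silencing of ribosomal DNA, and Smarca5 (0.21, SE 0.05), which turned to -0.09 on total counts. The partners Baz1a (-1.47, SE 0.13), Baz2b (-0.78, SE 0.04), Rsf1 (-0.40) and Bptf (-0.19) were lower. In NuRD, 3 of 10 were higher and 5 lower: Mta1 (0.51, SE 0.08), a scaffold subunit, was the highest, and the methyl-CpG-binding relative Mbd3 (-0.71, SE 0.10) and the deacetylase Hdac1 (-0.55, SE 0.07) were the lowest. Of the 5 INO80-family and related ATPases 4 were called higher, but 3 of these, Ep400, Ino80 and Atrx, turned negative on total counts (-0.01, -0.04 and -0.13). Hells, a helicase needed for DNA methylation, kept its direction (0.47, SE 0.13). By library it was higher in neurons in 7 of 8, and -0.24 in WT male 1. Its highest broad class was a glial one, OPC, at 15.7 CPM against 11.4 CPM in inhibitory neurons, and its lowest was microglia at 2.91 CPM.

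A list of 45 further subunits and relatives of the same complexes gave a wider range. Of 42 tested, 13 were higher and 22 lower in neurons, with a median of -0.20, where 41.3% of all genes were higher and 38% lower. On total counts the split was 4 higher to 27 lower, and in thinned nuclei, with 29 tested, 5 to 16. The highest were Ercc6 (0.76, SE 0.06), a SNF2 protein of transcription-coupled repair, Trrap (0.73, SE 0.05), the scaffold of TIP60, and the INO80-family subunit Actr6 (0.46, SE 0.10). The lowest were the NuRD-binding zinc-finger factors Sall3 (-4.97, SE 0.27) and Sall1 (-3.61, SE 0.21), and Cecr2 (-3.39, SE 0.17), a partner of ISWI. Sall1 was 149 ± 22.7 CPM in microglia and 15.5 ± 3.3 in astrocytes, Sall3 was 90.3 ± 9.2 CPM and Cecr2 94.7 ± 22.9 CPM in astrocytes (SD, n = 8), and in excitatory neurons the means of all 3 were 2.99 CPM or less.

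The mean over glia hides differences among the glial classes. Levels of 24 of the 50 members varied less than 2-fold between the highest and the lowest of the 7 classes, and 6 varied more than 5-fold: Dpf3, Baz1a, Mta3, Smarca1, Actl6b and Hells. Each class was contrasted with the mean of the other 6 in the same fit, and each of 5 neuronal subclasses with the other 4. These contrasts were added after the levels had been seen. Members at adjusted p under 0.05 and at least 2-fold higher numbered 3 in astrocytes (background 13.6% of genes), 4 in oligodendrocytes (12.2%), 3 in OPC (10.5%), 3 in microglia (13.2%), 3 in excitatory neurons (15.4%) and 2 in inhibitory neurons (13.2%). Lower by as much were 0, 4, 0, 3, 3 and 5 members in the same order of classes, against 10.4%, 17.7%, 7.21%, 15.5%, 14.3% and 12.6% of genes. In vascular cells 4 members were higher (15.1%) and 6 lower (15%). Among the subclasses, the higher and lower members numbered 2 and 0 in L2/3 IT (6.43% and 5.97% of genes), 0 and 0 in L4/5 IT (5.16% and 5.44%), 0 and 1 in deep non-IT (4.64% and 4.77%), 0 and 2 in MGE (7.86% and 9.15%) and 1 and 0 in CGE (7.22% and 6.03%).

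**Figure D3:**
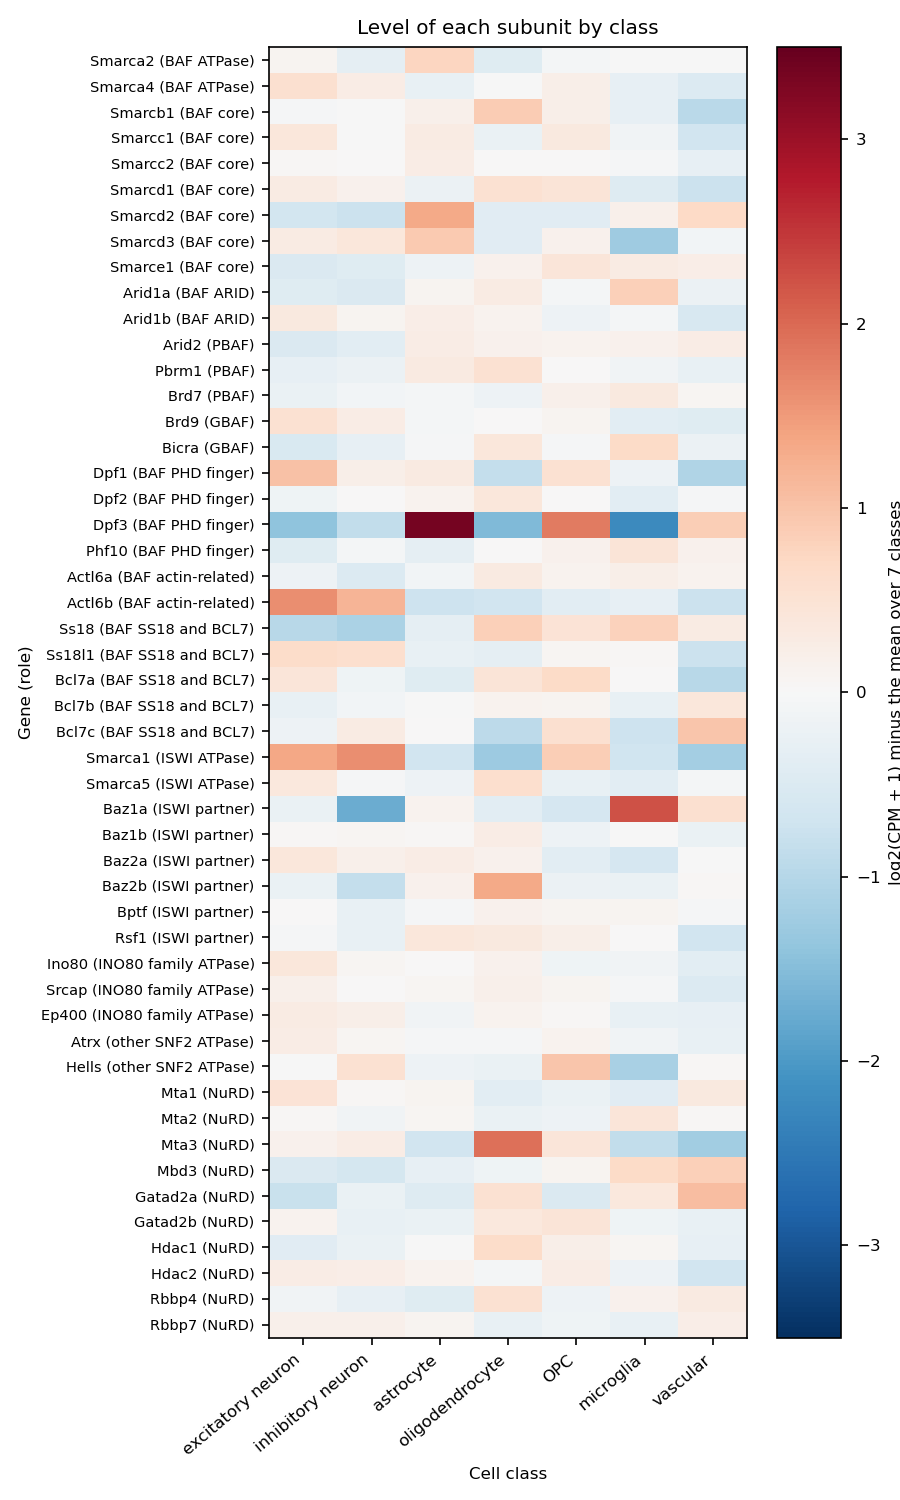
Mean level of each of the 50 genes (rows, with role) in 7 classes (columns), as log2(CPM + 1) minus the gene's mean over classes, red for higher and blue for lower. Most rows are pale, and Dpf3 in astrocytes, Baz1a in microglia and Mta3 in oligodendrocytes are the darkest red cells.

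Dpf3 (minus strand, chr12:83213745-83487716) had the widest range. It was between 188 and 292 CPM in astrocytes (median 230) and between 57.0 and 109 CPM in OPC (median 84.3). In excitatory neurons it was between 5.26 and 10.3 CPM (median 7.89), and in oligodendrocytes and microglia it averaged 7.13 and 4.02 CPM. Astrocytes stood above every other class in 8 of 8 libraries and did not overlap with any, and OPC did not overlap with neurons. The contrasts were 4.05 for astrocytes (SE 0.07, adjusted p = 4.66e-56) and 2.22 for OPC (SE 0.09, adjusted p = 2.87e-32, edgeR both).

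In neurons, Dpf3 was concentrated in one kind of interneuron. Nuclei gated as CGE interneurons (from the caudal ganglionic eminence) had 31.6 to 52.4 CPM (median 39.98), MGE interneurons 1.18 to 4.51 CPM (median 2.34), and the CGE contrast was 2.86 (SE 0.15, adjusted p = 8.28e-20, edgeR; 1 member at least 2-fold higher, background 7.22% of genes). Clusters built without the member genes divide this class: the cluster led by Vip and Adarb2, which holds 560 of the CGE-gated nuclei, had 65.2 ± 10.8 CPM, and the cluster led by Pde11a and Kit, with 397 of them, had 4.97 ± 3.03 CPM (SD, n = 8). When classes were formed from named clusters, where the Vip-led cluster has no name, the CGE contrast was -0.15.

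Baz1a, the partner of SMARCA5 in the ACF and CHRAC complexes, was highest in microglia among the broad classes and in upper-layer neurons among the subclasses. It was between 44.8 and 81.7 CPM in microglia (median 59.4), above every other class in 8 of 8 libraries, with a contrast of 2.83 (SE 0.15, adjusted p = 3.22e-26, edgeR). In L2/3 IT neurons, the intratelencephalic cells of the upper layers, it was 14.9 to 31.8 CPM (median 23.3). It was 1.48 to 7.33 CPM in L4/5 IT (median 4.83) and 2.41 to 5.92 CPM in deep non-IT neurons (median 3.56), with no overlap with L2/3 IT. The L2/3 IT contrast was 2.68 (SE 0.10, adjusted p = 1.44e-24, edgeR), 1 of 2 members at least 2-fold higher there (background 6.43% of genes). The other was the ATPase Smarca2 (BRM), at 218 to 380 CPM (median 282) and a contrast of 1.18 (SE 0.05, adjusted p = 6.11e-24, edgeR). Among excitatory clusters, Baz1a was highest in the L2/3 cluster led by Gm15398, at 33.8 ± 7.12 CPM (SD, n = 8).

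Among the 7 classes, oligodendrocytes had the highest level of a NuRD and of an ISWI gene. Mta3, a NuRD scaffold subunit, was between 247 and 342 CPM there (median 281) and next highest in OPC, at 84.9 to 119 CPM (median 105), without overlap. Its contrast was 2.28 (SE 0.06, adjusted p = 3.71e-45, edgeR), although its difference between neurons and glia as a whole was 0.00 (SE 0.05). Baz2b, a bromodomain partner of ISWI, was between 646 and 757 CPM in oligodendrocytes (median 729), with a contrast of 1.58 (SE 0.04, adjusted p = 7.10e-42, edgeR), and lowest in inhibitory neurons, at 148 to 167 CPM (median 163). By cluster, Baz2b was 691 ± 30.4 CPM in the oligodendrocyte cluster and 613 ± 92.6 CPM in an unnamed cluster led by Slc47a1 and Bnc2, which overlapped (SD, n = 8 each). The BAF core subunit Smarcb1, at 62.8 ± 9.98 CPM against 17.1 to 38.8 CPM in the other classes (SD, n = 8), also passed 2-fold (1.10, SE 0.08, adjusted p = 4.13e-19, edgeR).

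Ss18 was higher in several glial classes than in neurons. It was between 69.2 and 107 CPM in oligodendrocytes (median 79.5) and between 67.8 and 95.4 CPM in microglia (median 80.6), which overlapped. OPC, at 56.0 to 74.3 CPM (median 64.1), overlapped with both, and astrocytes were at 24.9 to 44.3 CPM (median 37.5). In excitatory neurons it was 20.1 to 26.6 CPM (median 22.1) and in inhibitory neurons 15.6 to 23.9 CPM (median 23.0), below every oligodendrocyte, microglia and OPC value. Among the broad classes, Arid1a was highest in microglia (164 ± 31.0 CPM, SD, n = 8, contrast 1.02, SE 0.07). Among the same classes Smarcd2 and Smarcd3 were highest in astrocytes, with contrasts of 1.63 (SE 0.10) and 1.10 (SE 0.11).

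Hells was highest in OPC among the broad classes, at 15.7 ± 2.96 CPM (SD, n = 8), with a contrast of 1.22 (SE 0.20, adjusted p = 3.64e-07, edgeR). Its highest cluster was the one led by Igfbpl1 and the cell-cycle gene Top2a, with 75.0 ± 38.8 CPM over 7 libraries (SD) against 17.2 ± 4.12 in the OPC cluster. That cluster supplied 156 of the nuclei gated as inhibitory neurons (3.93%). Hells, Smarcb1 and the values by cluster were singled out after they had been seen.

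**Figure D4:**
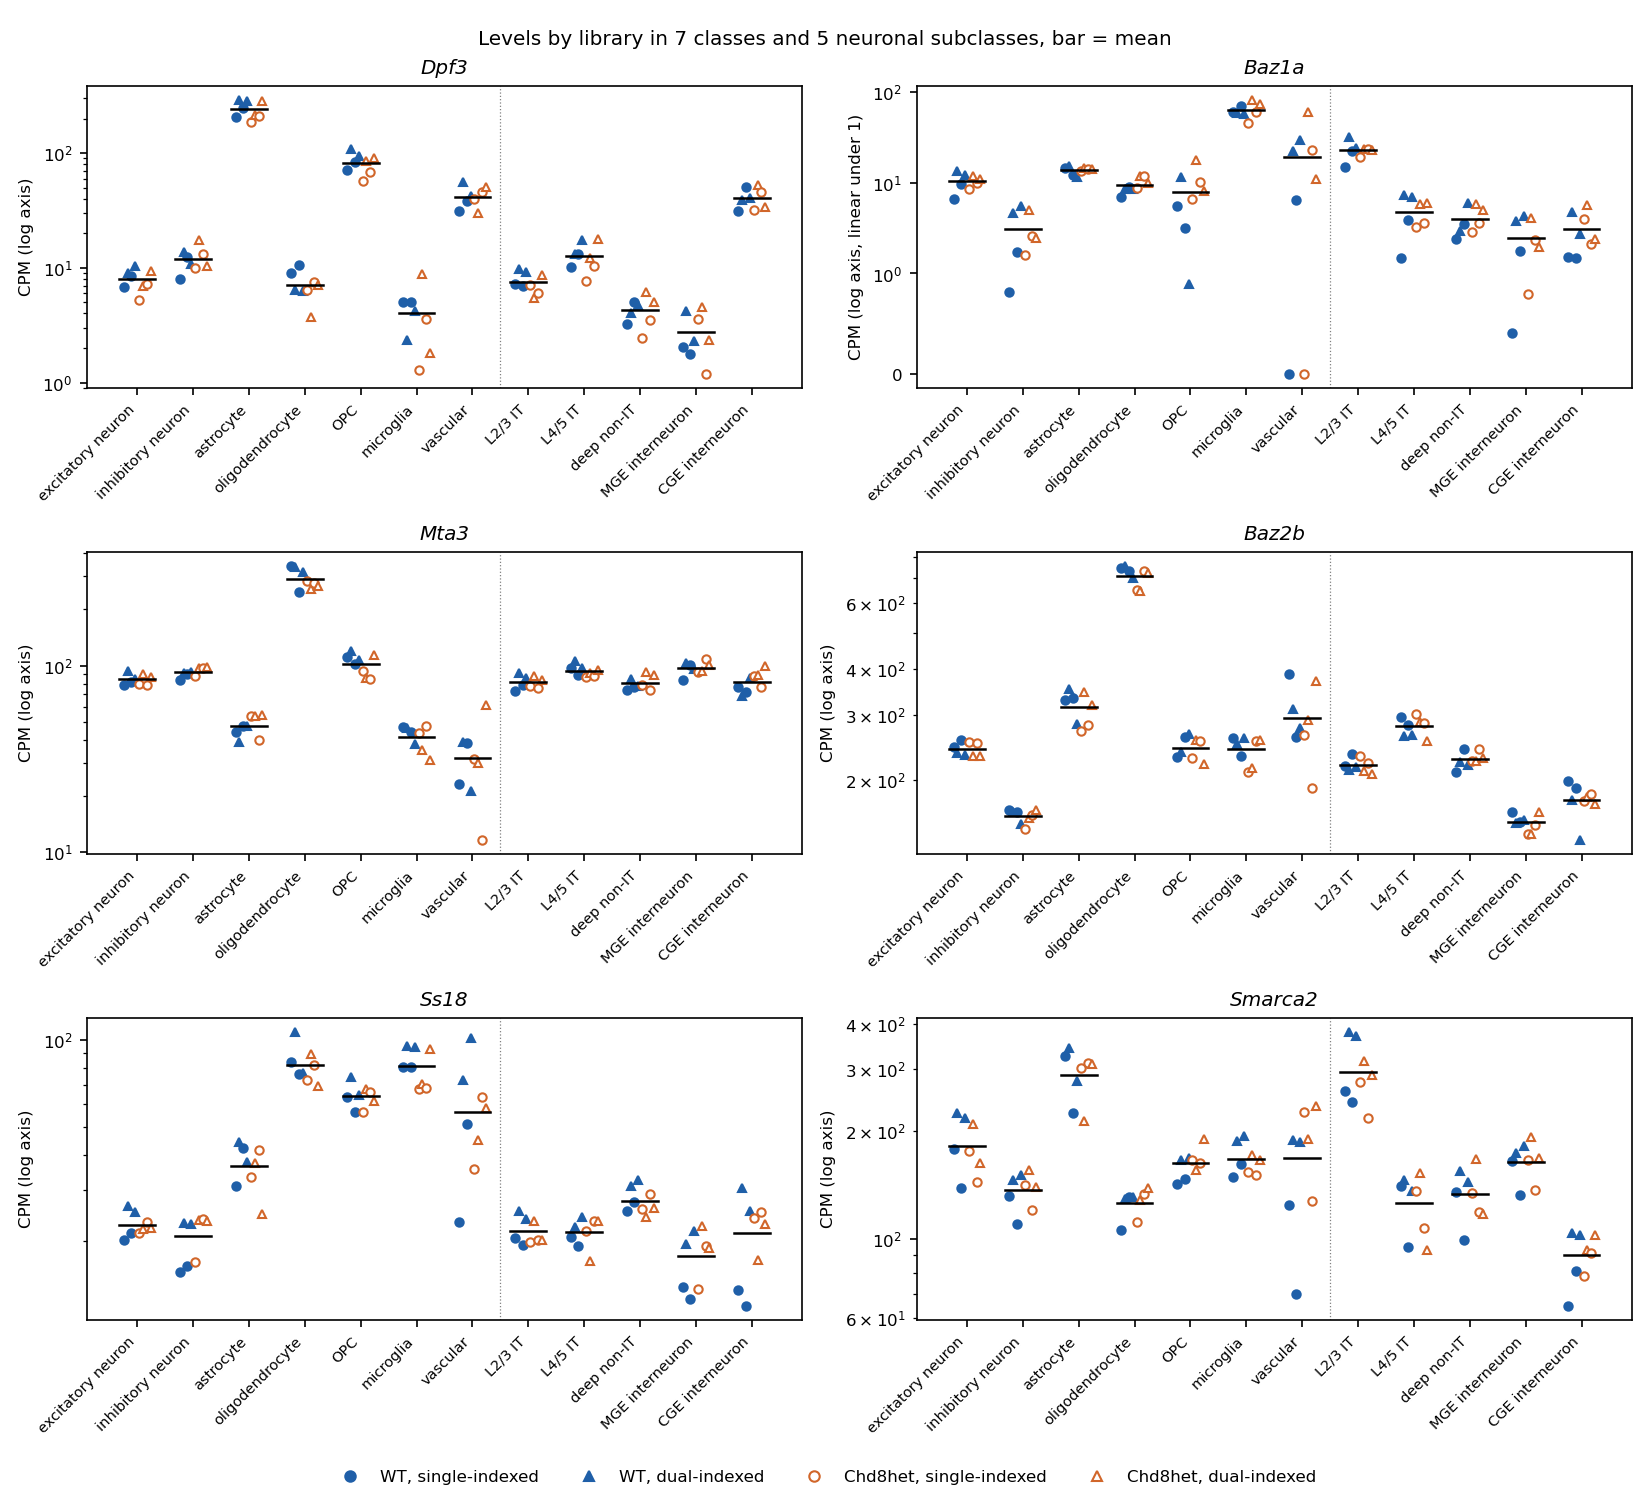
CPM (vertical axis, logarithmic, linear below 1 for Baz1a) of 6 genes in 7 classes and, right of the dotted line, 5 neuronal subclasses, with 1 point per library (circles single-indexed, triangles dual-indexed, filled blue WT, open orange Chd8het) and a bar at the mean. Dpf3 peaks in astrocytes, OPC and CGE interneurons, Baz1a in microglia and L2/3 IT, and Mta3 and Baz2b in oligodendrocytes, with WT and Chd8het points mixed.

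The last comparison was of genotype. CHD8 is itself a chromatin remodeller, an ATPase of the CHD family, and the question was whether subunit genes differ in mice labelled heterozygous for it. Chd8 was counted first. Over all nuclei it was 76.3, 82.7, 79.8 and 80.5 CPM in the WT libraries (male 1, male 2, female 1, female 2) and 76.2, 87.4, 76.9 and 76.5 CPM in those labelled Chd8het, in the same order. The groups overlapped, with a difference of -0.01 log2 units (SE 0.07, adjusted p = 1.00, edgeR). Because the allele is not described, these counts do not check the labels, and each group below is that of the libraries so labelled.

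No member was called different between genotypes. In 13 sets of nuclei (7 classes, 5 neuronal subclasses and all nuclei), 603 member tests with edgeR gave 0 calls at adjusted p under 0.05, as did all 166022 gene tests (background 0%). An unadjusted p under 0.05 was found in 7 member tests (1.16%) against 3335 tests of all genes (2.01%), and in 3 with DESeq2, which called 0 members and, of all genes, 6 higher and 6 lower. Both shares lay below the 0.05 that p values spread evenly from 0 to 1 would give, so they do not show that the genotypes are alike. The member count was 14 with the replicate block and 14 with sex and index type as covariates. In the main fit the smallest adjusted p was 0.998. The median change of the members ran from -0.06 in vascular cells to 0.05 in microglia and CGE interneurons, and the median over all genes rounded to 0.00 or 0.01 in each set. Data were simulated with a spread between libraries (dispersion) fixed at 0.05, which was not taken from these libraries. On them, the same test in excitatory neurons recovered 59 of 98 genes changed by 1 log2 unit and 97 of 98 changed by 2. In microglia it recovered 53 of 100 and 97 of 97. These rates hold for that dispersion only. In the real data the median SE of the members was 0.09 in excitatory neurons and 0.21 in microglia. Small changes could have been missed.

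The smallest unadjusted p values, singled out after they had been seen, belonged to Smarca1. In CGE interneurons it was 60.5, 65.9, 58.7 and 62.4 CPM in WT and 82.6, 93.3, 90.1 and 77.3 CPM in Chd8het libraries. Every Chd8het value lay above every WT value, the difference was 0.47 (SE 0.14), and the adjusted p was 1.00 (edgeR). Groups without overlap were found in 10 of 603 member tests. A random split of 4 against 4 libraries separates with a probability of 0.0286, but the sets of nuclei share nuclei, so the tests are not independent. The share over all genes was not computed, so this count is a description and does not set Smarca1 apart. In oligodendrocytes Smarca1 was 5.42, 3.52, 4.66 and 9.60 CPM in WT and 9.86, 9.25, 13.4 and 11.6 CPM in Chd8het libraries, on 5 to 22 UMIs per library. It was higher in 4 of 4 pairs, which here and below are libraries of matching sex and number, as litters are not labelled. These groups overlapped, and the difference was 0.92 (SE 0.31, adjusted p = 1.00, edgeR).

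Next in order of unadjusted p came Actl6b in CGE interneurons, at 35.1 ± 8.1 CPM in WT and 48.9 ± 2.2 CPM in Chd8het libraries (SD, n = 4 each). Its difference was 0.48 (SE 0.19), higher in 4 of 4 pairs. Ino80 in CGE interneurons (-0.35, SE 0.14) was lower in 4 of 4 pairs. Mbd3 in deep non-IT neurons (0.47, SE 0.19) was higher in 4 of 4 pairs. None of these was called, and all were also singled out after they had been seen. For all nuclei, excitatory neurons and inhibitory neurons, the members with the smallest p changed by less. Over all nuclei the 3 members with the smallest p were Mbd3 (0.19, SE 0.16), Bcl7c (0.10, SE 0.10) and Smarcb1 (-0.06, SE 0.07). In excitatory neurons they were Dpf3 (-0.28, SE 0.15), lower in the Chd8het library of 4 of 4 pairs, Mbd3 (0.23, SE 0.17) and Smarce1 (-0.10, SE 0.08). In inhibitory neurons they were Arid2 (-0.20, SE 0.09), lower in 4 of 4 pairs, Bcl7b (0.32, SE 0.17) and Brd7 (-0.20, SE 0.12). All 9 had an adjusted p of 1.00 (edgeR).

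**Figure D5:**
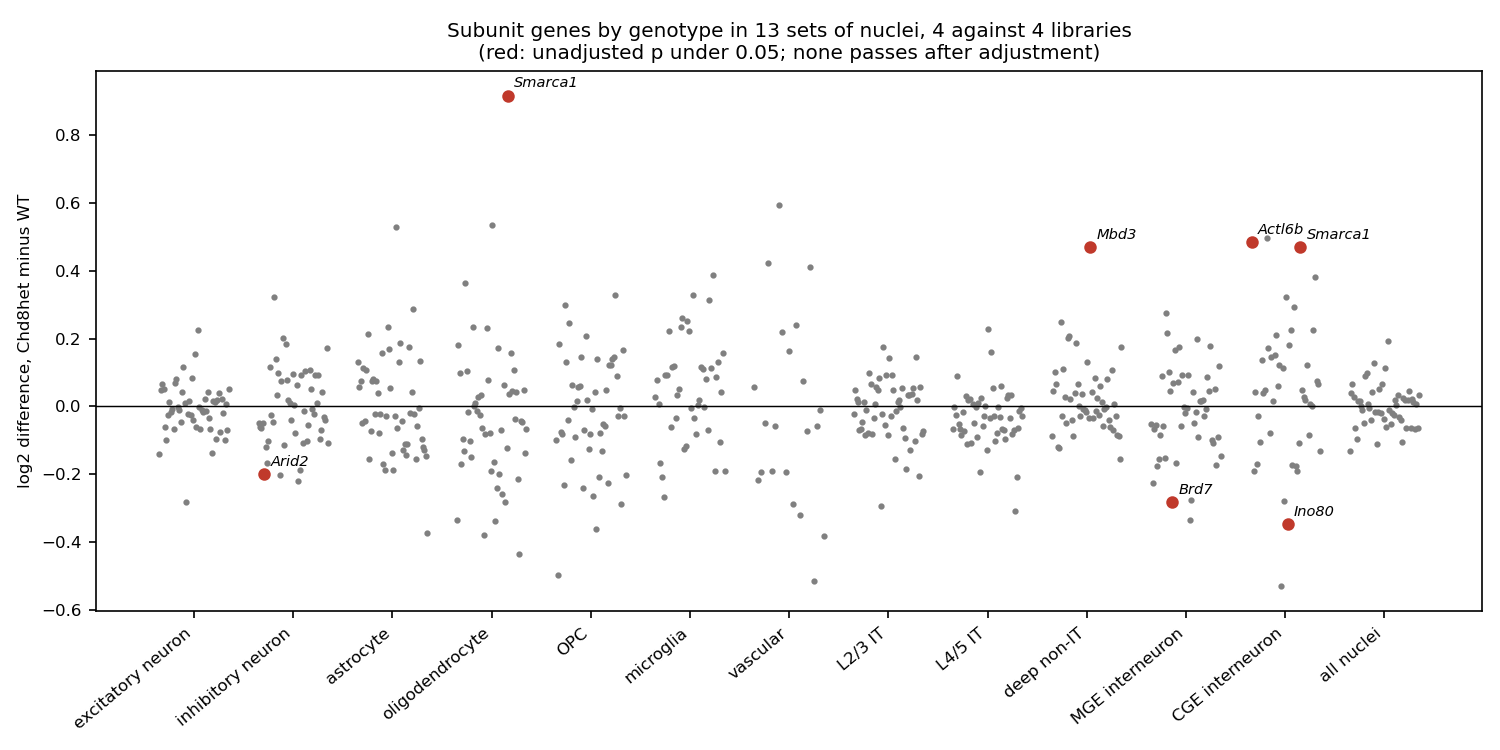
Log2 difference of Chd8het minus WT (vertical axis) for each tested member, 1 point per gene, in 13 sets of nuclei (horizontal axis), with the 7 tests of unadjusted p under 0.05 in red and named. The points spread around 0 in every set, most widely in oligodendrocytes and vascular cells, and none passed after adjustment.

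For paralogue ratios the design could not call a single pair between genotypes, and the values are a description. The Actl6b/Actl6a ratio in neurons was 1.01, 1.76, 0.99 and 2.01 in WT and 1.10, 2.13, 1.11 and 1.747 in Chd8het libraries, overlapping and with the low values in the single-indexed libraries of both genotypes. Over 20 pairs in neurons and in glia, 40 exact permutation tests of 4 against 4 libraries had a smallest adjusted p of 0.762. The smallest unadjusted p this design allows is 0.0286, which fails adjustment over 40 tests unless many pairs reach it together, so the lack of calls says nothing about whether single ratios differ. The lowest found was 0.0571, for Smarca2/Smarca4 and Arid1b/Arid1a in glia (-0.15 and -0.21) and Bcl7a/Bcl7b in neurons (-0.24). The genotype difference of the neuron minus glia contrast was tested in edgeR and called 0 of 14264 genes (background 0%; 718 at unadjusted p under 0.05), with 1 member, Baz1b, at unadjusted p under 0.05 (-0.21, SE 0.10, adjusted p = 0.966).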

How the data were processed

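Nuclei were profiled with the 10x 3' kit, v3 chemistry, per the labels' protocols. The authors deposited whole-number UMI counts per gene and barcode, and the submitters' processing notes name STAR 2.7.9a, STARsolo, Cell Ranger and mm10. Strandedness and the use of intron reads are not given in the sources used here. Of the 50 members, 29 overlap another GENCODE M21 gene, and reads of such genes may not be told apart.

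From the counts, nuclei with at least 500 genes and at most 5% mitochondrial UMIs were kept and doublets were removed with Scrublet (scanpy 1.11.5). Nuclei were gated by fixed markers: at least 3 markers, a relative score of 0.5 and a lead of 2-fold over the next class. Counts were summed per library and class, so n is animals. Genes were filtered with filterByExpr (minimum count 10), TMM-scaled and tested with edgeR 4.0.16 (glmQLFTest, R 4.3.3), with library as a block between classes and sex as a covariate between genotypes, and adjusted by Benjamini-Hochberg over all genes. Ratios used a pseudocount of 1 CPM. Whole libraries held 69503598 to 98132783 UMIs, and precision in a class rests on the smaller sums of that class and on the number of animals. These sums per library ran from 80887 to 197156 UMIs in vascular cells, 309272 to 600086 in microglia and 48113317 to 66626934 in excitatory neurons. The tests were checked on simulated data, for edgeR with a fixed dispersion not taken from these libraries.

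Members, pairs and lists were chosen with earlier results of these data known. Named genes are members of listed pairs, the 8 members with the largest neuron minus glia difference in each direction, the 3 with the smallest genotype p in all nuclei, excitatory and inhibitory neurons, and 3 other subunits in each direction. Other genes of a family were named after their values had been seen. The labels do not say which libraries share a litter: a WT and a Chd8het library with matching sex and number formed a pair here. Their deviations from the group means correlated in all 13 sets of nuclei (r 0.16 to 0.62, all above 0.1). The number also marks index type, so each pair shares sex and index type, and neither was removed from the deviations. The correlation therefore cannot show which libraries share a litter. Alternatives were DESeq2 1.42.0, other scalings and filters, a replicate block, an index term, each replicate left out, doublets kept, a stricter gate, classes from clusters, thinned nuclei and removal of 3 minor clusters, the last and the contrasts of each class chosen after seeing the data. Levels by cluster, marker sums, ratios, and the levels and gene count by index type over all nuclei use total UMIs, without TMM scaling. Differences between index types by class use TMM-scaled levels.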

Additional observations from a re-analysis of the deposited data

Results flagged for a closer look

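In 9 of 118 groups of 4 libraries, 1 library lay far from the other 3, where chance gives about 1 in 20. Among neuron minus glia ratios of WT libraries, Smarca2/Smarca4 was -1.007 in female 1 against -0.6801 to -0.6633, and Smarcd3/Smarcd1 was 1.171 in male 2 against 0.4504 to 0.5484. Among Chd8het libraries, male 2 stood apart for Arid1b/Arid1a (0.7825 against 1.106 to 1.172) and for Baz1a/Baz1b (-1.208 against -1.527 to -1.501), and female 2 for Baz2b/Baz2a (-1.343 against -1.193 to -1.173). The neuron minus glia difference of Mta1 was 0.04772 in Chd8het female 1 and 0.7469 to 0.7725 in the other 3. Of single levels, Smarcd3 in WT astrocytes was 28.39 CPM in male 1 against 38.13 to 39.85, Ss18 in Chd8het microglia was 93.16 CPM in female 2 against 67.8 to 70.65, and Baz1a in Chd8het L2/3 IT neurons was 19.22 CPM in male 1 against 23.13 to 23.65. The direction of each ratio was that of the other libraries.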

How the results depend on the processing

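Small differences between neurons and glia depended on scaling. Members higher in neurons numbered 20 in the main analysis, 9 on total counts and 6 in nuclei thinned to 1000 UMIs (47 members tested); those lower numbered 22, and 34 on total counts; those lower by at least 2-fold numbered 3, and 7 on total counts. Leaving out each replicate gave 17 to 20 higher and 24 to 26 lower. Of 20 paralogue ratios 19 were called, and 12 with thinning, where Dpf1/Dpf2, Smarcc2/Smarcc1, Smarcd3/Smarcd1, Bcl7a/Bcl7c, Mta3/Mta1, Mta1/Mta2 and Gatad2b/Gatad2a were lost. Gatad2b/Gatad2a was also lost without each of 7 of the 8 libraries (0.20 to 0.26). With total counts the sign turned for 8 of the 42 called members, among them Smarca5, Ep400, Ino80 and Atrx. It also turned for Bcl7a/Bcl7c (0.11, summed neurons and glia) and for Dpf3 in CGE interneurons (-0.15, clusters). The cause was not tested. Of single values, 1352 comparisons with an alternative kept their direction and side of the threshold, 19 lost the call and 2 gained one. Another 2 turned, Bcl7a/Bcl7c and Dpf3 in CGE interneurons, and the 8 members that turned with total counts are not among these 2. Member tests of genotype at unadjusted p under 0.05 (edgeR) numbered 7 in the main analysis and 3 to 10 without each replicate. With the replicate block for pairs, genotype calls of members stayed at 0 (14 at unadjusted p under 0.05, 6 of all genes lower). Blocked ratio tests (0 calls) are uninformative, since the smallest p that 4 pairs can give lies above 0.05. Member calls were also 0 with DESeq2 (6 genes called higher and 6 lower), with no filter (19 and 17), with sex and index type (0 and 2) and without each replicate (1 gene lower without Chd8het female 2, 0 otherwise). Vascular cells could not be fitted with the stricter gate. Rare genes, such as Smarca1 in oligodendrocytes at 5 to 22 UMIs per library, are limited by depth.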

Other observations

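The deeper clusters of the tissue add a few values, in CPM of total UMIs without TMM scaling, that no comparison uses. Dpf3 was 150 ± 37.6 CPM (SD, 7 libraries) in an unnamed cluster of 380 nuclei led by Slc38a11 and Abcc9, second only to the astrocyte cluster (235 ± 32.9, SD, n = 8) among 32 clusters. Baz1a was highest in the microglia cluster, at 89.3 ± 12.3 CPM (SD, n = 8), and 2.45 ± 1.04 CPM in the deep-layer cluster led by Foxp2 and Hs3st4. Actl6b was 7.09 ± 5.35 CPM in an unnamed cluster of 932 nuclei led by Cnksr3, the lowest of the 32, and 56.9 ± 3.38 CPM in the Foxp2-led cluster, the highest.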
